A study of Mus musculus with 18 samples.

Results

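Expression of 9 adipokines and secreted adipocyte proteins was measured by RNA-seq in adipocytes isolated from inguinal white adipose tissue (iWAT), in adipocytes isolated from epididymal white adipose tissue (eWAT) and in brown adipose tissue (BAT). The members are the genes for leptin (Lep), adiponectin (Adipoq), resistin (Retn), adipsin (Cfd), retinol binding protein 4 (Rbp4), nicotinamide phosphoribosyltransferase (Nampt), chemerin (Rarres2), lipocalin 2 (Lcn2) and apelin (Apln). They were chosen by symbol and are 9 of the 52093 symbols in the files, each with 1 row. The 18 libraries, 6 per tissue, came from wild type male C57BL/6 mice aged 16 weeks fed a diet high in fat (HFD) during 12 weeks, so all 3 groups share strain, sex, genotype and diet. The labels give the strain as C57BL/6, and the study's supplement names the substrain C57BL/6NTac. One label field names regular chow instead, against the titles, the design and the extraction text, and the libraries were treated as HFD. White adipocytes were the floating layer after collagenase digestion, whereas BAT was processed as tissue, although a label calls it BAT adipocytes. The titles number the libraries of both white depots 1, 2, 3, 4, 5 and 16 and those of BAT 1, 2, 5, 16, 17 and 18. These are called mouse numbers here, although the labels do not say that the same number is the same animal.

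Adipokines are proteins that fat cells release into blood or into their surroundings. Leptin reports fat stores to the brain, adiponectin promotes insulin sensitivity in liver and muscle, and resistin opposes insulin action in mice. Adipsin is complement factor D, the protease that starts amplification of the alternative complement pathway, and chemerin attracts leukocytes through its receptor Cmklr1. Adipocytes, macrophages and endothelial cells can each make some of these proteins.

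Reads on the rows numbered 24655056 to 42518483 per library, and the 10 rows with the most reads took 43.6% to 54.3% of them in BAT against at most 20.5% in the white depots. The 8 adipocyte markers, such as Fabp4, Plin1 and Cidec, summed to 10760 to 15140 RPKM (reads scaled by row length in kilobases and by the total reads of the library) in iWAT adipocytes, with 2537 to 7469 in eWAT adipocytes and a range of 5887 to 7216 in BAT. Fabp4 alone made up most of each sum. Its mean RPKM was 10490 (iWAT), 4050 (eWAT) and 5087 (BAT), beside mean sums of 13240, 5176 and 6380. The 8 macrophage markers, such as Cd68 and Lyz2, summed to 587 to 1144 RPKM in iWAT adipocytes, with 3257 to 5251 in eWAT adipocytes and a range of 29.6 to 56.5 in BAT. The 5 brown adipocyte markers, Ucp1 among them, summed to 2234 to 3028 RPKM in BAT and to at most 17.2 in a white library. Between the white depots, 4 of 5 mesothelial markers tested were higher in eWAT adipocytes and 3 of 6 fibroblast and progenitor markers were higher in iWAT adipocytes (edgeR's quasi-likelihood test). The eWAT libraries of mice 1 and 3 stood apart, with the lowest adipocyte marker sums of all 18 libraries (3413 and 2537 RPKM) and the highest macrophage marker sums (5251 and 5118), and the member values and list counts that use eWAT are also given without them. In these bulk samples, fewer cells of a type and less RNA per cell cannot be told apart.

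The promoter windows of 4 members are shown because 3 of them, Lep, Adipoq and Retn, had their highest level in iWAT adipocytes, whereas Nampt had its highest level in BAT. Each is the 250 bases before the annotated start, 5′ to 3′ on the strand of the gene, from RefSeq on build GRCm38.p6. The windows are chr6:29059971-29060220 (plus strand) for Lep, chr16:23146286-23146535 (plus strand) for Adipoq, chr8:3655520-3655769 (plus strand) for Retn and chr12:32820085-32820334 (plus strand) for Nampt. Capitals mark TTGCNNAA, a motif of C/EBP factors, and GGGCGG, the GC box, on either strand, and the Adipoq and Retn windows hold neither.
Lep: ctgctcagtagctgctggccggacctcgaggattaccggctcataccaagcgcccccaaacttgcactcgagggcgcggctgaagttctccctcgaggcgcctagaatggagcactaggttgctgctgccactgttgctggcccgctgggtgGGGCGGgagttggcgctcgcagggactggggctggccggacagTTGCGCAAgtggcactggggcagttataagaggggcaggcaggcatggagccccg
Adipoq: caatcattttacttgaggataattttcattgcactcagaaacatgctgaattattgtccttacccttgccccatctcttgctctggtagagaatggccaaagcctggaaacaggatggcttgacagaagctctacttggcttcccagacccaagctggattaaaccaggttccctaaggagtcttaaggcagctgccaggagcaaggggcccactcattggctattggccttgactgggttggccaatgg
Retn: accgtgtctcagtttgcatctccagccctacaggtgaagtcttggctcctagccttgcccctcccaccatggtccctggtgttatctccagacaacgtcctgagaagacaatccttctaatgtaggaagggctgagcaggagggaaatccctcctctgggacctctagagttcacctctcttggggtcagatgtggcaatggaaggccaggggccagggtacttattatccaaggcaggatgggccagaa
Nampt: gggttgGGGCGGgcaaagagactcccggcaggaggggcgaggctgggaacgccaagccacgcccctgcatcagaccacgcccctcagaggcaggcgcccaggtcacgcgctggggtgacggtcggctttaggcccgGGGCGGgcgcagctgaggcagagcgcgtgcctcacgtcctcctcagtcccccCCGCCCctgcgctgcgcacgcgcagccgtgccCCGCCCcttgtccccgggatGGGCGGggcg

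Of the 9 members, 8 had a window, and Rbp4 had a pair of them. Both strands were searched for each motif. TTGCNNAA was in 9.56% of all 32851 windows of this length and in those of Lep, Lcn2 and Rbp4. In the Lep window its first base lay at position -55, counting the last base before the start as -1. GGGCGG was in 32.7% of all windows and in those of Lep, Rbp4, Nampt, Lcn2 and Apln, and Nampt held it at 5 places. The Nampt window had 75.6% G and C and 27 CpG dinucleotides, against 48.8% and 0 for Adipoq and 54.8% and 2 for Retn, with medians of 52.4% and 6 over all windows. AGGTCA, a half-site of nuclear receptors, was in 14.0% of all windows and in that of Nampt alone among the members, none of it overlapping another motif searched. CCAAT was in 33.8% of all windows and in those of Adipoq and Rbp4, and TATAAA was in 12.4% and in that of Rbp4. These matches are a description of the letters and not of binding.

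The first question was which of the secreted proteins differ in expression between the depots. In iWAT adipocytes against eWAT adipocytes, 9 of 9 members passed an adjusted p of 0.05 in edgeR's quasi-likelihood test, against 68.6% of all genes tested. Of these, 7 were higher in iWAT adipocytes (34.1% of all genes) and 2, Nampt and Lcn2, were higher in eWAT adipocytes (34.5% of all genes). In iWAT adipocytes against BAT, 9 of 9 passed (background 75.3%), with 8 higher in iWAT adipocytes (background 38.1%) and Nampt higher in BAT (background 37.2%). In eWAT adipocytes against BAT, 8 of 9 passed (background 82.5%), with 6 higher in eWAT adipocytes (background 41.1%) and Nampt and Apln higher in BAT (background 41.4%). With so large a share of all genes passing, the number of members called is close to the background in each comparison, and the values of single members carry the description. The median log2 fold change of the members was 1.33, 2.22 and 1.22 in these comparisons, beside medians over all genes of 0.0014, 0.014 and -0.017. The 6 libraries of one tissue did not overlap those of the other, on values scaled with TMM factors fitted for each comparison, for 7, 9 and 4 of the 9 members, against 43.9%, 56.5% and 66.3% of all genes. With factors fitted over all 18 libraries the counts were 7, 8 and 4, as Lcn2 then overlapped between iWAT adipocytes and BAT, and in RPKM they were 7, 9 and 6. With the factors of all 18 libraries, Lep overlapped between eWAT adipocytes and BAT and Apln no longer did, so this count did not move. The comparisons share libraries and are not independent of each other.

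**Figure D1:**
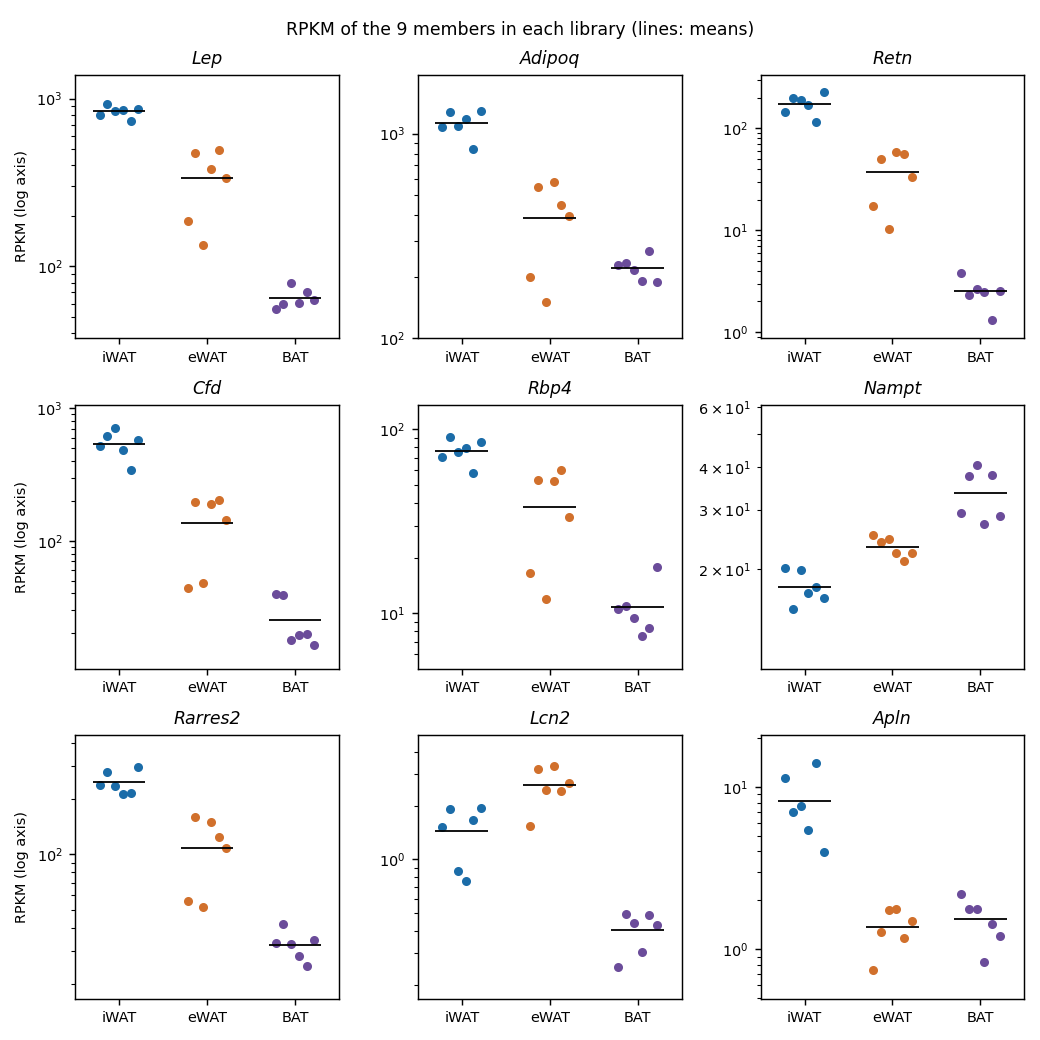
RPKM of the 9 members (log axes) in each of the 6 libraries of iWAT adipocytes, eWAT adipocytes and BAT, with points for libraries and lines for means. Lep, Adipoq, Retn, Cfd, Rbp4, Rarres2 and Apln were highest in iWAT adipocytes and Nampt was highest in BAT, and the eWAT libraries of mice 1 and 3 were the lowest of their tissue for Lep (187 and 134 RPKM) and Adipoq (199 and 150 RPKM).

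The calls depended on how the libraries were scaled. The values above use TMM factors, which set the median gene near 0. Scaled on the total count alone, the median gene moved to a log2 fold change of 0.87 in iWAT adipocytes against BAT and of 0.89 in eWAT adipocytes against BAT, and the split of all genes called moved from 7528 higher and 7336 lower to 13703 and 3054 in the first of these and from 8243 and 8318 to 12965 and 4061 in the second. In iWAT adipocytes against BAT, the members kept 8 higher and 1 lower. In eWAT adipocytes against BAT, 7 members were then called, all of them higher in eWAT adipocytes. Scaled on the summed counts of the adipocyte markers, iWAT adipocytes against eWAT adipocytes moved to a median gene of -1.55, with 208 genes higher and 16446 lower, and 5 members were called in place of 9. Those 5 were Retn, Cfd and Apln, higher in iWAT adipocytes, and Nampt and Lcn2, higher in eWAT adipocytes.

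**Figure D2:**
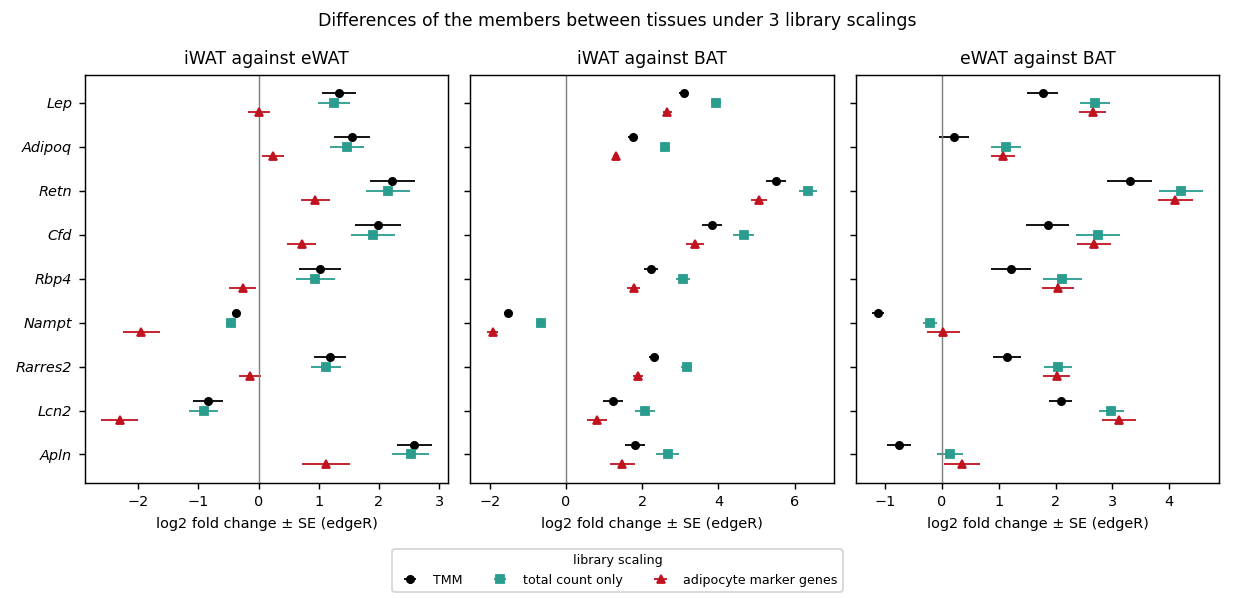
Log2 fold change ± SE of each member in edgeR for the 3 comparisons, with TMM scaling (black circles), the total count alone (green squares) or the summed adipocyte markers (red triangles). The values of Lep, Rbp4 and Rarres2 in iWAT against eWAT moved to near 0 with the marker scaling (0.01, -0.26 and -0.14), and that of Apln in eWAT against BAT changed its sign.

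Lep and Adipoq, the hormones that adipocytes are best known for, were among the most abundant transcripts of iWAT adipocytes. Lep lies at chr6:29010220-29023877 (plus strand) and Adipoq at chr16:23146609-23158101 (plus strand) of mm9, the build of the files for this and all later gene positions. Lep had 737 RPKM at the lowest, 853 at the median and 928 at the highest in iWAT adipocytes. In eWAT adipocytes it had 134, 359 and 495 RPKM, and in BAT 55.9, 61.8 and 79.1. In RPKM, no library of one tissue reached the range of another. With TMM factors fitted over all 18 libraries, eWAT adipocytes and BAT overlapped for Lep. The means were 839 ± 65.0, 335 ± 148 and 64.8 ± 8.57 RPKM (SD, n = 6 each), and Lep ranked 33rd of all symbols by mean RPKM in iWAT adipocytes. The log2 fold change was 1.33 ± 0.28 (SE) between the white depots (edgeR, adjusted p = 0.000899), 3.08 ± 0.13 between iWAT adipocytes and BAT (adjusted p = 1.2e-11) and 1.77 ± 0.27 between eWAT adipocytes and BAT (adjusted p = 2.07e-05). With the adipocyte marker scaling, the difference between the white depots was 0.01 ± 0.19 (adjusted p = 0.971).

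Adipoq had 840, 1135 and 1297 RPKM (lowest, median and highest) in iWAT adipocytes and ranked 23rd there. It had 150, 422 and 579 RPKM in eWAT adipocytes and 189, 223 and 268 in BAT. The iWAT libraries stood above all others, whereas of the eWAT libraries that of mouse 1 (199 RPKM) lay within the BAT range and that of mouse 3 (150 RPKM) below it. The means were 1127 ± 166, 387 ± 178 and 221 ± 29.5 RPKM (SD, n = 6 each). Adipoq differed between iWAT adipocytes and eWAT adipocytes by 1.55 ± 0.30 (SE) on the log2 scale (edgeR, adjusted p = 0.000515) and between iWAT adipocytes and BAT by 1.75 ± 0.13 (adjusted p = 5.01e-09). The adipocyte marker scaling gave 0.24 ± 0.18 for the white depots (adjusted p = 0.225). Between eWAT adipocytes and BAT the value was 0.22 ± 0.27 (adjusted p = 0.457). This last comparison was not settled by these data: it was 0.58 ± 0.12 (adjusted p = 0.000378) without the eWAT libraries of mice 1 and 3, 1.12 (adjusted p = 0.000755) without TMM and 1.08 (adjusted p = 9.34e-05) with the adipocyte marker scaling.

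The ratio of Lep to Adipoq within a library does not depend on library scaling. It was 0.667 to 0.877 in iWAT adipocytes, with 0.658 to 1.10 in eWAT adipocytes and a range of 0.244 to 0.365 in BAT, so that BAT did not overlap the white depots. The means were 0.753 ± 0.0696, 0.886 ± 0.144 and 0.296 ± 0.0486 (SD, n = 6 each). On the log2 scale, the ratio was higher by 1.36 in iWAT adipocytes and by 1.58 in eWAT adipocytes than in BAT, each with an exact two-sided permutation p of 0.0022, the smallest that 924 splits of 12 libraries can give. It differed by -0.22 between iWAT adipocytes and eWAT adipocytes (exact permutation p = 0.0736). That value rested on single libraries: it was -0.31 (exact permutation p = 0.00866) without eWAT mouse 4 and -0.27 (exact permutation p = 0.0498) without iWAT mouse 5. With 3 comparisons in this family, the Benjamini-Hochberg adjusted p was 0.00325 for both comparisons with BAT and 0.0736 for the white depots.

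**Figure D3:**
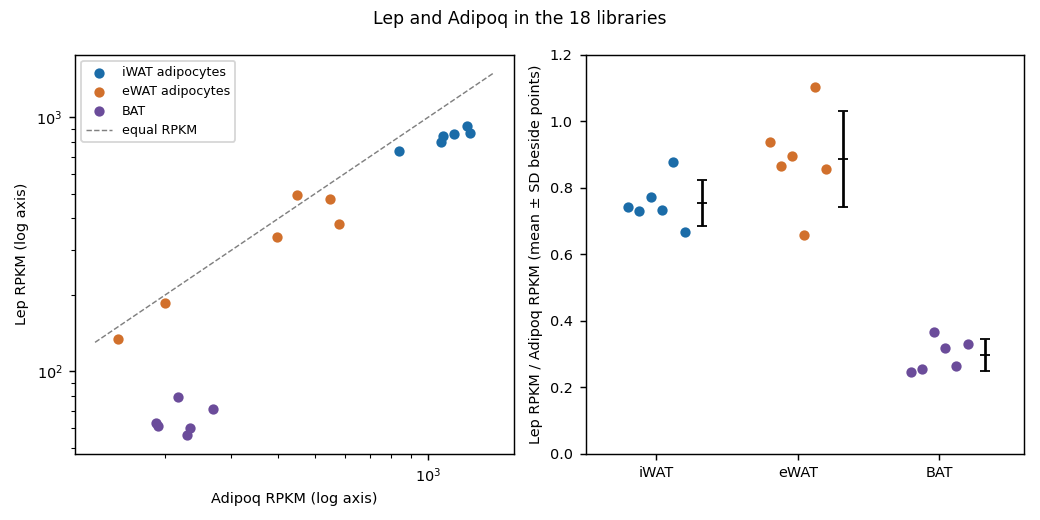
Lep against Adipoq in RPKM for the 18 libraries (left, log axes, dashed line at equal RPKM) and the ratio of Lep to Adipoq per library with mean ± SD of 6 libraries (right). The BAT libraries lie apart at ratios of 0.244 to 0.365, below the white libraries at 0.658 to 1.10.

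Retn and Cfd had the largest log2 fold changes of the members between iWAT adipocytes and BAT, under each of the 3 library scalings. Retn (chr8:3655770-3660110, plus strand) had 116, 179 and 225 RPKM (lowest, median and highest) in iWAT adipocytes, with 10.2, 41.6 and 58.3 in eWAT adipocytes and 1.30, 2.48 and 3.84 in BAT. The 3 ranges did not overlap. The log2 fold change of Retn was 2.23 ± 0.38 (SE) for iWAT adipocytes against eWAT adipocytes (edgeR, adjusted p = 0.000191), 5.51 ± 0.25 for iWAT adipocytes against BAT (adjusted p = 2.75e-11) and 3.30 ± 0.40 for eWAT adipocytes against BAT (adjusted p = 1.69e-06). The row of Retn is longer than its longest GENCODE transcript (1579 against 1120 bases), which lowers its RPKM in every library alike, and the row of Lcn2 is too (2302 against 1374).

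Cfd (chr10:79353598-79355401, plus strand) had 341, 544 and 709 RPKM in iWAT adipocytes, with 43.7, 167 and 202 in eWAT adipocytes and 16.3, 19.5 and 39.6 in BAT. In BAT, the libraries of mice 1 and 2 (39.6 and 38.7 RPKM) lay just below the lowest eWAT library, and the other 4 had 16.3 to 19.7. The log2 fold change of Cfd was 1.99 ± 0.38 (SE) between the white depots (edgeR, adjusted p = 0.000469), 3.83 ± 0.26 for iWAT adipocytes against BAT (adjusted p = 1.85e-09) and 1.86 ± 0.38 for eWAT adipocytes against BAT (adjusted p = 0.00034). The whole gene lies within the row of Med16 on the opposite strand. The counting is not stated to use strand, so reads of the 2 genes cannot be told apart, and the same holds for Lep and Rbm28, Adipoq and AK018896, and Rarres2 and Lrrc61.

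Rbp4, which carries retinol in blood, and Rarres2, the precursor of chemerin, followed the same order of tissues. Rbp4 (chr19:38191110-38199811, minus strand) had means of 76.4 ± 11.5, 37.9 ± 20.4 and 10.8 ± 3.72 RPKM (SD, n = 6 each) in iWAT and eWAT adipocytes and in BAT. Its libraries ran from 57.6 to 90.6 RPKM in iWAT adipocytes (median 76.9), with from 12.0 to 60.2 in eWAT adipocytes (median 42.8) and from 7.53 to 17.9 in BAT (median 9.99). The eWAT range met both others. The log2 fold change of Rbp4 was 1.02 ± 0.34 (SE) between the white depots (edgeR, adjusted p = 0.0176), 2.22 ± 0.18 for iWAT adipocytes against BAT (adjusted p = 2.25e-08) and 1.22 ± 0.35 for eWAT adipocytes against BAT (adjusted p = 0.00447). With the adipocyte marker scaling, the first of these was -0.26 (adjusted p = 0.283).

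Rarres2 (chr6:48519697-48522669, minus strand) had 211, 236 and 296 RPKM (lowest, median and highest) in iWAT adipocytes, with 52.1, 116 and 160 in eWAT adipocytes and 24.8, 32.9 and 42.0 in BAT. The 3 ranges did not overlap in RPKM. Its log2 fold change was 1.19 ± 0.26 (SE) between the white depots (edgeR, adjusted p = 0.00131), 2.31 ± 0.13 for iWAT adipocytes against BAT (adjusted p = 2.46e-10) and 1.14 ± 0.25 for eWAT adipocytes against BAT (adjusted p = 0.000587). The first value was -0.14 (adjusted p = 0.489) with the adipocyte marker scaling.

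Nampt, the enzyme that limits NAD synthesis from nicotinamide and is also released from cells, ran in the opposite order. Nampt (chr12:33505200-33538234, plus strand) had 15.3, 17.4 and 20.2 RPKM (lowest, median and highest) in iWAT adipocytes, with 21.1, 23.2 and 25.2 in eWAT adipocytes and 27.3, 33.4 and 40.7 in BAT, with no overlap between tissues. It varied least of the members among the eWAT libraries (coefficient of variation 6.83%). Mice 1 and 3 were the highest eWAT libraries for it (25.2 and 24.6 RPKM). Its log2 fold change was -0.38 ± 0.07 (SE) for iWAT adipocytes against eWAT adipocytes (edgeR, adjusted p = 0.000285), -1.53 ± 0.11 for iWAT adipocytes against BAT (adjusted p = 2.73e-09) and -1.12 ± 0.10 for eWAT adipocytes against BAT (adjusted p = 7.44e-08). The last of these was -0.21 (adjusted p = 0.123) without TMM and 0.03 (adjusted p = 0.933) with the adipocyte marker scaling, so a difference of Nampt between eWAT adipocytes and BAT depended on the scaling.

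Lcn2, an iron-siderophore binding protein of the innate immune response, was rare in all 3 tissues. Lcn2 (chr2:32240153-32243317, minus strand) had 0.754, 1.59 and 1.94 RPKM (lowest, median and highest) in iWAT adipocytes, with 1.54, 2.57 and 3.31 in eWAT adipocytes and 0.250, 0.439 and 0.496 in BAT, from 16 to 248 reads per library. The white depots overlapped each other, and BAT lay below both. The log2 fold change of Lcn2 was -0.84 ± 0.25 (SE) for iWAT adipocytes against eWAT adipocytes (edgeR, adjusted p = 0.0095), 1.23 ± 0.26 for iWAT adipocytes against BAT (adjusted p = 0.000443) and 2.09 ± 0.20 for eWAT adipocytes against BAT (adjusted p = 1.17e-07). Neutrophils also make Lcn2. The 8 neutrophil markers summed to 5.68 to 7.38 RPKM in iWAT adipocytes and to 2.75 to 8.73 in eWAT adipocytes. In BAT the sum was 0.445 to 1.57. In the white depots, nearly all of it was S100a8, at a mean of 6.06 RPKM in iWAT adipocytes and 5.72 in eWAT adipocytes. In BAT, S100a8 had a mean of 0.489 RPKM out of a mean sum of 0.906. S100a9 ran otherwise, at 0.180, 0.0668 and 0.410 RPKM in iWAT and eWAT adipocytes and in BAT. Ly6g was at 0 in every library. The part of neutrophils in the Lcn2 values was not tested.

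Apln, the ligand of the receptor Aplnr, was the member with the largest difference between the white depots with TMM or without it, at 2.59 and 2.53 on the log2 scale, and was at 1.12 with the adipocyte marker scaling. Apln (chrX:45378323-45388030, minus strand) had 3.97, 7.28 and 13.9 RPKM (lowest, median and highest) in iWAT adipocytes, with 0.741, 1.38 and 1.76 in eWAT adipocytes and 0.831, 1.60 and 2.18 in BAT. The iWAT libraries stood above all others, and eWAT adipocytes and BAT overlapped in RPKM. Its log2 fold change was 2.59 ± 0.29 (SE) for iWAT adipocytes against eWAT adipocytes (edgeR, adjusted p = 6.31e-06) and 1.80 ± 0.26 for iWAT adipocytes against BAT (adjusted p = 1.26e-05). For eWAT adipocytes against BAT it was -0.76 ± 0.21 (adjusted p = 0.00413), but 0.14 (adjusted p = 0.578) without TMM, 0.36 (adjusted p = 0.31) with the adipocyte marker scaling and -0.15 (adjusted p = 0.554) in limma on log2(RPKM + 0.1). Endothelial cells also express Apln. Within iWAT adipocytes, Apln was highest in mice 5 (13.9 RPKM) and 1 (11.3), which also had the highest sums of the 5 endothelial markers (286 and 244 RPKM), and lowest in mouse 16 (3.97), which had the lowest sum (101). Across tissues, those sums were 101 to 286 RPKM in iWAT adipocytes, with 34.3 to 73.0 in eWAT adipocytes and a range of 70.7 to 102 in BAT. Apln and these sums did not keep the same order in every library. In iWAT adipocytes, mouse 4 had 5.41 RPKM of Apln at a sum of 182, and mouse 2 had 6.99 at 139. Mouse 3 had 7.57 at 123. In BAT, the highest sum (102, mouse 18) went with 1.21 RPKM of Apln. The highest Apln in BAT (2.18, mouse 1) went with a sum of 97.8. The part of endothelial cells in the Apln values was not tested.

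The gap between the white depots was smaller without the eWAT libraries of mice 1 and 3 for every member except Lcn2, whose gap was larger. With both left out, 9 of 9 members still passed between iWAT adipocytes and eWAT adipocytes with the same signs, beside 11763 of 19542 genes tested. Between eWAT adipocytes and BAT, 9 of 9 passed, beside 16160 of 20002 genes. Between the white depots, the log2 fold change was then 0.99 ± 0.14 (SE) for Lep, 1.19 ± 0.16 for Adipoq, 1.82 ± 0.22 for Retn, 1.56 ± 0.20 for Cfd, 0.62 ± 0.17 for Rbp4 and 0.86 ± 0.14 for Rarres2 (edgeR). Nampt (-0.35 ± 0.08), Lcn2 (-1.01 ± 0.25) and Apln (2.51 ± 0.32) moved less. Against BAT, the eWAT values were 2.12 for Lep, 3.72 for Retn, 2.29 for Cfd, 1.63 for Rbp4, 1.48 for Rarres2, 2.27 for Lcn2, -1.16 for Nampt and -0.68 for Apln.

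Sequencing lane was mixed within the white depots but not with BAT. Lane 1 held iWAT mice 1 and 3 and eWAT mice 2, 3, 4 and 5, and lane 2 held the other white libraries, whereas BAT was sequenced on lanes 3 and 4. For BAT, lane and tissue cannot be told apart. Preparation was also tied to tissue, as white adipocytes were the floating layer after collagenase digestion and BAT was processed as tissue. In every comparison with BAT, depot, preparation and lane therefore cannot be told apart, and their separate parts were not tested. With lane as a covariate, 9 of 9 members passed between the white depots, beside 13018 of 19623 genes tested. Within lane 1 alone, 4 members passed, beside 7300 of 19450 genes tested. Within lane 2 alone, 8 members passed, beside 9923 of 19830 genes. The direction of every member was as in the whole set. Lep had a log2 fold change of 1.16 in lane 1 and 1.73 in lane 2, that of Adipoq 1.34 and 1.99, that of Retn 1.95 and 2.86 and that of Cfd 1.96 and 2.49. For Rbp4 it was 0.73 and 1.70, for Rarres2 0.97 and 1.66, for Apln 2.67 and 2.79, for Nampt -0.18 and -0.48, and for Lcn2 -1.25 and -0.38.

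The second question was how the members vary together among the 6 libraries of a tissue. In eWAT adipocytes, the libraries fell into 2 clusters for Lep, Adipoq, Retn, Cfd, Rbp4 and Rarres2, with mice 1 and 3 low and mice 2, 4, 5 and 16 high, so no correlation coefficient is given for them. Retn had 17.4 and 10.2 RPKM in mice 1 and 3 against 33.0 to 58.3 in the others, Cfd 43.7 and 48.4 against 142 to 202, Rbp4 16.5 and 12.0 against 33.2 to 60.2, and Rarres2 55.8 and 52.1 against 108.1 to 160. The clusters were less clear for Retn and Rbp4, where mouse 16 had 33.0 and 33.2 RPKM and the next higher library 50.15 and 52.4. The highest value was 1.19 times the lowest for Nampt and 3.07 to 5.71 times for these 6 members. The adipocyte markers moved with them, and the part of adipocyte content in this covariation was not tested.

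**Figure D4:**
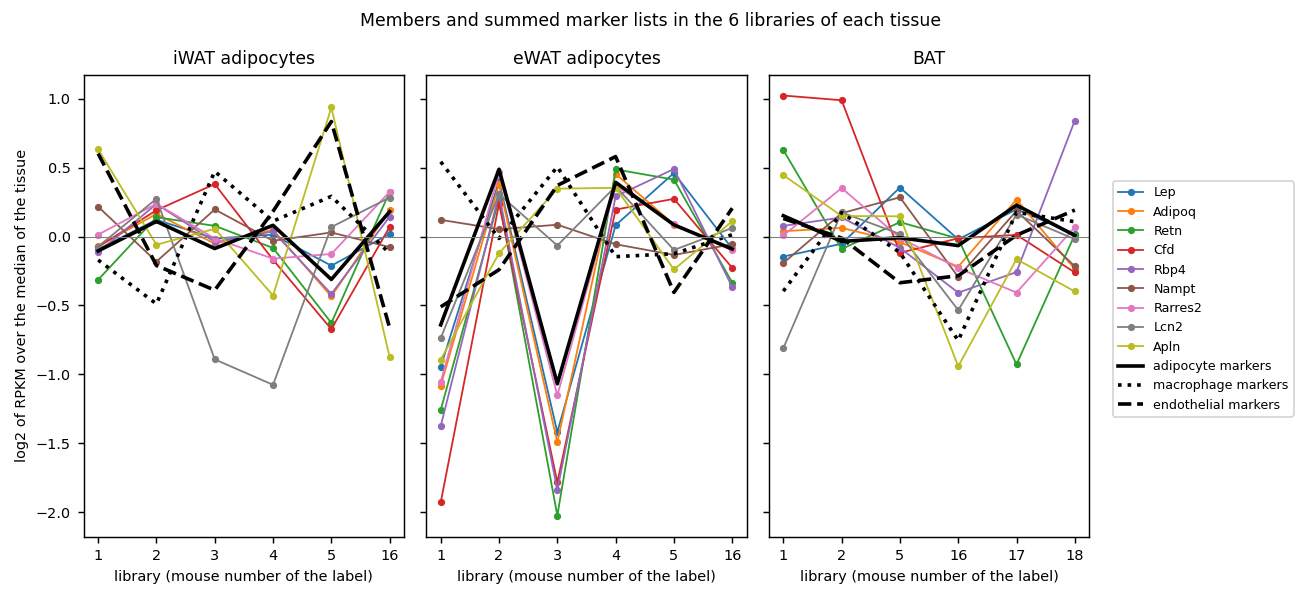
Log2 of the RPKM of each member over its median in the tissue, for the 6 libraries of iWAT adipocytes, eWAT adipocytes and BAT, with the summed RPKM of 3 marker lists in black. In eWAT adipocytes, the libraries of mice 1 and 3 were low for 6 members and the adipocyte markers and high for the macrophage markers. Nampt ran from 21.1 to 25.2 RPKM there and was highest in mice 1 and 3.

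In iWAT adipocytes, Lep, Adipoq, Retn and Rbp4 varied together, and mouse 5 was the lowest library for each of them. Mouse 5 also had the lowest sum of adipocyte markers in iWAT adipocytes (10760 RPKM), and the part of adipocyte content in this covariation was not tested. Correlations were computed on log2(RPKM + 0.1) over 6 libraries, with exact permutation p-values adjusted over all pairs of members in the 3 tissues together, and none passed. At an unadjusted exact permutation p of 0.05, 9 of 36 pairs passed by Pearson's r in iWAT adipocytes, with 15 in eWAT adipocytes and 0 in BAT. By Spearman's rho the counts were 7, 5 and 1. The eWAT counts include pairs of the clustered members, for which no coefficient is given. In iWAT adipocytes, Lep and Rbp4 had r = 0.979 (exact permutation p = 0.00139, adjusted p = 0.075) and rho = 1 (exact permutation p = 0.00278, adjusted p = 0.15). Without the 2 libraries farthest from the median of Lep, r was 0.878, and centred within lanes it was 0.978. Adipoq and Rbp4 had r = 0.981 (exact permutation p = 0.00417, adjusted p = 0.0833) and rho = 0.943 (exact permutation p = 0.0167, adjusted p = 0.18), with r = 0.982 without the 2 farthest libraries and 0.982 within lanes. Lep and Adipoq had r = 0.926 (exact permutation p = 0.00833, adjusted p = 0.0833) and rho = 0.943 (exact permutation p = 0.0167, adjusted p = 0.18), with 0.748 and 0.925 in those checks. Apln ran against Adipoq with r = -0.854 (exact permutation p = 0.0264, adjusted p = 0.124) and rho = -0.943 (exact permutation p = 0.0167, adjusted p = 0.18), with r = -0.583 without the 2 farthest libraries and -0.872 within lanes.

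In BAT, no pair reached an unadjusted exact permutation p of 0.05 by Pearson's r, and r ran from -0.700 to 0.733. Retn, Cfd and Apln were highest in mouse 1, Lep and Nampt in mouse 5, Rarres2 and Lcn2 in mouse 2, Adipoq in mouse 17 and Rbp4 in mouse 18. The members were also related to the summed RPKM of marker lists. The adipocyte sum is mostly Fabp4, and relations with single adipocyte markers within a tissue were not tested. Among 54 relations of the members with summed adipocyte and macrophage markers, 2 passed an adjusted p of 0.05 by r and none by rho. One was Adipoq with the adipocyte markers in iWAT adipocytes, with r = 0.973 (exact permutation p = 0.00139, adjusted p = 0.0375), rho = 1 (exact permutation p = 0.00278, adjusted p = 0.075) and r = 0.941 without the 2 farthest libraries. The other was Rarres2 with the adipocyte markers in eWAT adipocytes, where the clusters allow no coefficient to be read. Both rank the 6 libraries in the same order as the markers. In iWAT adipocytes, Lep (r = 0.887, rho = 0.943, exact permutation p = 0.0194 and 0.0167, adjusted p = 0.075 and 0.113), Retn (r = 0.893, rho = 0.943, exact permutation p = 0.0222 and 0.0167, adjusted p = 0.075 and 0.113) and Rbp4 (r = 0.948, rho = 0.943, exact permutation p = 0.00694 and 0.0167, adjusted p = 0.05 and 0.113) also followed the adipocyte markers without passing. Without the 2 farthest libraries, r was 0.858 for Lep, 0.51 for Retn and 0.878 for Rbp4. Apln ran against these markers, with r = -0.922 (exact permutation p = 0.00694, adjusted p = 0.05), rho = -0.943 (exact permutation p = 0.0167, adjusted p = 0.113) and r = -0.764 without the 2 farthest libraries.

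Receptors and binding partners of the members formed a list of 15 genes, of which 12 had enough reads to be tested. Of these, 8 passed between iWAT adipocytes and eWAT adipocytes (6 higher in iWAT adipocytes and 2 lower), 11 between iWAT adipocytes and BAT (9 and 2) and 11 between eWAT adipocytes and BAT (6 and 5), beside the backgrounds of 68.6%, 75.3% and 82.5%. The list medians of the log2 fold change were 0.58, 1.03 and 0.33. Without TMM, 11 and 0 were higher and lower in iWAT adipocytes against BAT and 8 and 2 in eWAT adipocytes against BAT. With the adipocyte marker scaling, 0 and 8 were higher and lower between the white depots, 5 and 3 between iWAT adipocytes and BAT and 8 and 1 between eWAT adipocytes and BAT. Stra6, the RBP4 receptor, Ttr, the carrier of RBP4, and Lrp2 were not tested. Lepr, the leptin receptor, was at 0.108 ± 0.0896 RPKM in iWAT adipocytes, with 0.117 ± 0.0632 in eWAT adipocytes and 0.0225 ± 0.0132 in BAT (SD, n = 6 each), far below its ligand.

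The adiponectin receptors differed from each other. Adipor1 was at 26.6 ± 1.70, 28.1 ± 1.73 and 22.8 ± 2.75 RPKM in iWAT and eWAT adipocytes and in BAT (SD, n = 6 each), with a log2 fold change of -0.08 ± 0.06 (SE) between the white depots (edgeR, adjusted p = 0.247). With TMM, Adipor1 was higher in BAT, against the order of its RPKM means. Its value was -0.39 ± 0.06 for iWAT adipocytes against BAT (adjusted p = 4.71e-05) and -0.28 ± 0.07 for eWAT adipocytes against BAT (adjusted p = 0.00169). Adipor2 was at 70.2 ± 10.1, 38.7 ± 9.96 and 74.1 ± 7.93 RPKM and was higher in iWAT adipocytes than in eWAT adipocytes by 0.87 ± 0.17 (adjusted p = 0.000642), but lower by the adipocyte marker scaling, at -0.57 (adjusted p = 0.0135). With TMM, Adipor2 was also higher in BAT, at -0.68 ± 0.12 for iWAT adipocytes (adjusted p = 7.8e-05) and -1.53 ± 0.16 for eWAT adipocytes (adjusted p = 2.43e-07). Cdh13, T-cadherin, which binds adiponectin multimers on endothelium and muscle, was at 6.30 ± 2.52, 1.64 ± 0.416 and 2.11 ± 0.33 RPKM and differed by 1.94 ± 0.25 between the white depots (adjusted p = 1.8e-05). Aplnr was at 12.5 ± 4.92, 3.99 ± 1.69 and 5.43 ± 1.97 RPKM and differed by 1.65 ± 0.29 (adjusted p = 0.00024). Their differences were 0.46 (adjusted p = 0.249) and 0.05 (adjusted p = 0.921) with the adipocyte marker scaling. Both were higher in iWAT adipocytes than in eWAT adipocytes with TMM, as were 5 of 5 endothelial markers. With the adipocyte marker scaling, 0 of these 5 passed (median log2 fold change 0.14). The part of endothelial cells was not tested.

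The chemerin receptors Cmklr1 and Ccrl2 were expressed in the white depots and were near 1 RPKM in BAT. Cmklr1, the signalling receptor, was at 31.0 ± 4.20, 21.2 ± 1.69 and 1.02 ± 0.457 RPKM in iWAT and eWAT adipocytes and in BAT (SD, n = 6 each). It was higher than in BAT by 4.32 ± 0.21 (SE) in iWAT adipocytes (edgeR, adjusted p = 5.39e-11) and by 3.78 ± 0.20 in eWAT adipocytes (adjusted p = 8.65e-11) on the log2 scale. Ccrl2, which binds chemerin without signalling, was at 18.4 ± 5.69, 65.7 ± 14.5 and 0.804 ± 0.135 RPKM and was lower in iWAT adipocytes than in eWAT adipocytes, at -1.83 ± 0.19 (adjusted p = 3.63e-06). Slc22a17, a receptor of lipocalin 2, was higher in iWAT adipocytes by 1.42 ± 0.21 (adjusted p = 5.48e-05) but by 0.03 with the adipocyte marker scaling (adjusted p = 0.913), and Cap1, a receptor of resistin, was lower at -1.18 ± 0.11 (adjusted p = 1.6e-06). Cfb, the substrate of adipsin, was higher than in BAT by 4.78 ± 0.17 in iWAT adipocytes (adjusted p = 2.19e-12) and by 4.20 ± 0.29 in eWAT adipocytes (adjusted p = 2.92e-09). All 8 macrophage markers were higher in eWAT adipocytes than in iWAT adipocytes and higher in both than in BAT, and the part of macrophages in these differences was not tested.

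Of 5 genes listed for the assembly and secretion of adiponectin in the endoplasmic reticulum, 4 were lower in iWAT adipocytes than in eWAT adipocytes under each of the 3 library scalings. With the marker scaling this was the direction of 16446 of all genes called, against 208 higher. All 5 genes of this list passed in each comparison, beside 68.6%, 75.3% and 82.5% of all genes, with 1 higher in iWAT adipocytes and 4 lower against eWAT adipocytes, and with 4 higher and 1 lower in each white depot against BAT. Gstk1, also known as DsbA-L, was higher in iWAT adipocytes than in eWAT adipocytes by 1.22 ± 0.23 (SE) on the log2 scale (edgeR, adjusted p = 0.00044) and lower than in BAT, at -0.58 ± 0.12 (adjusted p = 0.000458), but 0.27 (adjusted p = 0.0419) against BAT without TMM and -0.15 (adjusted p = 0.445) between the white depots with the adipocyte marker scaling. Erp44, which retains adiponectin through thiols, was at 9.78 ± 0.524, 12.6 ± 1.10 and 5.35 ± 0.365 RPKM in iWAT and eWAT adipocytes and in BAT (SD, n = 6 each) and differed by -0.36 ± 0.06 between the white depots (adjusted p = 0.000156). Hsp90b1, a chaperone, was at 67.9 ± 5.84, 110 ± 8.91 and 29.4 ± 3.71 RPKM, and differed by -0.69 ± 0.07 (adjusted p = 4.47e-06). Sel1l, part of the degradation machinery, differed by -0.39 ± 0.06 (adjusted p = 0.000114). With the adipocyte marker scaling, 2 of the 5 passed between iWAT adipocytes and BAT, and without TMM all 5 were higher in iWAT adipocytes than in BAT.

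Among 36 other secreted adipocyte proteins, 31 were tested. Of these, 21 passed between the white depots (16 higher in iWAT adipocytes and 5 lower), 28 between iWAT adipocytes and BAT (25 and 3) and 28 between eWAT adipocytes and BAT (21 and 7), with list medians of 0.70, 2.08 and 1.42. Of all genes, 68.6%, 75.3% and 82.5% passed, so the count between the white depots is at the background. Without TMM, 27 and 0 were higher and lower in iWAT adipocytes against BAT and 24 and 4 in eWAT adipocytes against BAT, and with the adipocyte marker scaling 1 was higher and 18 lower between the white depots. C1qtnf9, an adiponectin paralogue, differed by 2.13 ± 0.26 (SE) between iWAT adipocytes and eWAT adipocytes (edgeR, adjusted p = 1.16e-05), Serpina3c, a serine protease inhibitor, by 1.78 ± 0.32 (adjusted p = 0.000282) and Ccdc3, a secreted adipocyte protein, by 1.74 ± 0.28 (adjusted p = 0.000105). With the adipocyte marker scaling, these were 0.66 (adjusted p = 0.104), 0.48 (adjusted p = 0.035) and 0.41 (adjusted p = 0.0589). Spp1, osteopontin, ran the other way at 7.36 ± 2.07 RPKM in iWAT adipocytes, with 94.3 ± 26.1 in eWAT adipocytes and 0.134 ± 0.0585 in BAT (SD, n = 6 each), a log2 fold change of -3.67 ± 0.22 between the white depots (adjusted p = 1.7e-07). Tnf, an inflammatory cytokine, was at 44.2 ± 17.3, 120 ± 61.4 and 0.118 ± 0.073 RPKM. Il6, another cytokine, had at most 1 read in a BAT library and was at least 90.5-fold higher in iWAT adipocytes and at least 87.3-fold higher in eWAT adipocytes, taking 3 reads per BAT library as the floor. Sfrp5, a Wnt inhibitor, was higher than in BAT by 5.84 ± 0.19 in iWAT adipocytes (adjusted p = 1.38e-12), and Ccl2, a chemokine, by 5.21 ± 0.26 in eWAT adipocytes (adjusted p = 4.15e-11). With the eWAT libraries of mice 1 and 3 left out, 9 receptors and binding partners passed between the white depots (6 higher in iWAT adipocytes and 3 lower). All 5 assembly genes (1 and 4) and 21 other secreted proteins (14 and 7) also passed, beside 11763 of 19542 genes tested. Between eWAT adipocytes and BAT, 11, 5 and 30 passed, beside 16160 of 20002 genes. Spp1, Tnf and Ccl2 were higher in both white depots than in BAT, as all 8 macrophage markers were. Between the white depots Spp1 and Tnf were lower in iWAT adipocytes, like these markers, whereas Ccl2 did not pass (-0.38, adjusted p = 0.102), and the part of macrophages was not tested.

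The genes whose levels varied most like those of each member were found over 18 libraries after the mean of each tissue was removed, among 11407 genes, as a description that shares library and depth. For Adipoq they were AK018896, whose row overlaps it (r = 0.996), Nol3 (0.978) and the lipid droplet gene Cidec (0.977). For Rarres2 they were the complement gene Cfb (0.984), the overlapping row C2/Cfb (0.982) and Lrrc61 (0.971), which overlaps Rarres2. For Lep they were D3Ertd751e (0.957), C730029A08Rik (0.948) and BC034902 (0.944). For Retn they were Hoxc8 (0.949), Slc1a5 (0.930) and Cryab (0.928), for Cfd Ptrf (0.917), Nnat (0.916) and Gm9791 (0.907), and for Rbp4 Npr3 (0.968), Sema3c (0.959) and 1700047G03Rik (0.942). For Nampt they were Rbbp7 (0.928), Atad1 (0.908) and Erap1 (0.901), for Apln Sox7 (0.858), N4bp3 (0.858) and the water channel gene Aqp1 (0.853), and for Lcn2 App (0.783), Gda (0.778) and Hif1a (0.770). The values for Lcn2 were the lowest, with few reads behind it.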

How the data were processed

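RNA-seq libraries (NEBNext Ultra kit, Illumina sequencing) of iWAT adipocytes, eWAT adipocytes and BAT, 6 each, were analysed from their deposited tables. The authors aligned reads to mm9, and the submitters' processing notes name HISAT2 2.1.0 and cutadapt 1.16. The counting program, the annotation and the use of strand are not given in the sources used here. For each row the authors deposited raw counts of reads and RPKM, the count scaled by row length in kilobases and by the total reads of the library. Of 52093 symbols, 1220 had several rows, and the one of highest RPKM on average in the 18 libraries was used. Libraries were grouped by tissue from their titles. No 2 libraries of a tissue agreed within sampling noise.

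Each pair of tissues was compared with edgeR 4.0.16's quasi-likelihood test on counts (R 4.3.3, TMM factors, mean count of at least 10, Benjamini-Hochberg adjusted p of 0.05 over all genes tested), after the scripts were tested on simulated data. A log2 fold change is given as first tissue over second, with its SE. Alternatives were DESeq2 1.42.0, limma 3.58.1 on log2(RPKM + 0.1) and log2(RPKM + 1) with a mean RPKM of at least 0.1, other scalings, filters and rows, the mouse number as a block, lane, and leaving out libraries. Leaving out eWAT mice 1 and 3 together was chosen after seeing the data. Correlations and the ratio of Lep to Adipoq were tested by exact two-sided permutation (scipy 1.17.1) on RPKM. RPKM is not scaled by TMM, so levels and fold changes can differ.

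Members, gene lists and tests were chosen with earlier results of these data known. Named genes were the 9 members, the 4 genes of each list with the largest absolute log2 fold change among those past the threshold in a comparison with a mean RPKM of at least 1 in a tissue compared, 6 receptors in any case, and the 3 genes most like each member. Of 37 other secreted proteins, 36 were in the files. Libraries are separate samples in the labels, and p-values measure the spread between them.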

Additional observations from a re-analysis of the deposited data

Results flagged for a closer look

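Rbp4 in BAT had 1 library far from the others. The library of mouse 18 had 17.9 RPKM, whereas the other 5 BAT libraries had 7.53 to 11.0 RPKM. The gap to the nearest library was 0.666 of the whole range, above Dixon's 95% critical value for 6 samples. Of the 30 groups of 6 values examined in this way, chance alone gives about 1.5 such cases, and 1 was found.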

How the results depend on the processing

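The number of members called was 9, 9 and 8 in iWAT adipocytes against eWAT adipocytes, iWAT adipocytes against BAT and eWAT adipocytes against BAT. It was the same when any 1 library was left out, with every member keeping its direction and its side of the threshold (lowest and highest 9, 9 and 8). Between the white depots it fell to 5 with the adipocyte marker scaling, beside 16654 of 19623 genes called. It was 4 within lane 1 (7300 of 19450 genes) and 8 within lane 2 (9923 of 19830 genes). Each lane holds fewer libraries than the whole set, and the cause of these counts was not tested. The reversed values were Rbp4 (-0.26) and Rarres2 (-0.14) between the white depots with the marker scaling, and for eWAT adipocytes against BAT Nampt with the marker scaling (0.027) and Apln without TMM (0.14) and with the marker scaling (0.36), and the cause was not tested. With an added threshold of 1 on the log2 fold change, 4892, 7363 and 9830 of all genes were called in place of 13454, 14864 and 16561. The split of all genes called into higher and lower also moved with the marker scaling, to 4235 and 9877 in iWAT adipocytes against BAT and 12450 and 2966 in eWAT adipocytes against BAT, and with limma on log2(RPKM + 0.1), to 12752 and 4402 and to 11972 and 5740. Leaving out 1 library gave 12667 to 13562, 14434 to 14833 and 16270 to 16552 genes. The log2 ratio of Lep to Adipoq between the white depots ran from -0.31 to -0.16 without 1 library (exact permutation p 0.00866 to 0.152). The mouse number as a replicate block gave 9, 9 and 8 members and 12836, 12486 and 15146 genes, from 6, 4 and 4 pairs. The deviations of same-numbered libraries had mean correlations of 0.005, -0.010 and 0.007 over the pairs. Between the white depots the single pairs ran from -0.268 to 0.494. Of the pairs, 1 of 6, 1 of 4 and 1 of 4 correlated best with its own number. So few pairs from different depots cannot show whether the same number is the same animal, and the libraries were treated as unpaired. No pair of members passed in any tissue under any alternative, and leaving out the 2 farthest libraries gave coefficients and no count. TMM-scaled RPKM moved 15 of the means by more than 1 SD. Lcn2, with 16 to 248 reads per library, is the member that depth limits most.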
